A study of Bos taurus with 6 samples.

Results

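The genes of prostaglandin synthesis, breakdown and reception were examined in bovine cumulus cells, which are the somatic layers around the oocyte, after maturation with or without recombinant follicle-stimulating hormone (rFSH). The set held 10 genes: PLA2G4A, PTGS1, PTGS2, PTGES, PTGES2, PTGES3, PTGDS, HPGD, PTGER2 and PTGER4. They were chosen by name, and every array probe that the platform annotation pairs with one of these symbols was taken, which gave 23 of the 43794 bovine probes and 10 of 15229 named genes. The treated group was cumulus cells of complexes matured with 0.5 µg/mL rFSH, and the control group was cumulus cells of complexes matured in the same medium without it. Both groups came from slaughterhouse ovaries of Holstein cows, and both media held fetal calf serum and 1 µg/mL estradiol, so the control was free of neither serum factors nor steroid. The oocyte stayed inside each complex during culture. The sources used here give neither the number of animals behind a sample nor their age. Biological replicates 2, 3 and 4 each filled a dye-swapped pair of Agilent arrays, on which treated and control RNA were hybridised together, so that 3 replicates make 6 arrays. A label names the control for 6 h, whereas maturation is described as 22 to 24 h in either group; if the times differed, time and rFSH cannot be told apart in the ratios.

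Prostaglandins are made from arachidonic acid, which phospholipase A2 enzymes such as the PLA2G4A protein free from membrane phospholipids. The cyclooxygenases PTGS1 (constitutive) and PTGS2 (inducible) turn it into prostaglandin H, and terminal synthases turn that into prostaglandin E (PTGES, PTGES2, PTGES3) or prostaglandin D (PTGDS). HPGD starts the inactivation of prostaglandin E, and PTGER2 and PTGER4 are its receptors that raise cyclic AMP. In mice, loss of Ptgs2 or Ptger2 impairs cumulus expansion and ovulation, and gonadotropins are known to induce PTGS2 in the follicle.

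Signal was judged against the 153 negative control spots of each array, whose mean plus 2 SD set a limit in each colour. Between 38.2% and 83.3% of the bovine probes exceeded it in a channel of an array. The lowest share belonged to the control channel of 1 array, that of replicate 2 with rFSH in Cy3. It also stood apart in its ratios: its correlation with its dye-swapped partner across probes was 0.494, against 0.722 for replicate 3 and 0.707 for replicate 4. For results that turn on this array, values without it are given below. A probe was tested where it exceeded the limit on at least 3 arrays in either RNA, and where a gene had several tested probes the brightest stood for it in counts of genes. All 10 prostaglandin genes had a tested probe, and 17 of their 23 probes were tested.

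Raw signal of most of these probes lay close to the negative controls. The median raw intensity over the limit ranged widely: the PTGES3 probe EMBV3_32662 stood at 41.1 times the limit with rFSH and 48.6 times in control, and the PTGDS probe at 8.60 times with rFSH and 4.51 times in control. The PTGS2 probe EMBV3_40838 stood at 1.16 times the limit with rFSH and 1.00 times in control. Across the 17 tested probes, 5 exceeded the limit in both RNAs on every array: the probes of PLA2G4A and PTGDS and 3 of the 4 PTGES3 probes. The 6 probes that were not tested belonged to PTGS2 (EMBV3_13159 and EMBV3_16391), HPGD (EMBV3_03017 and EMBV3_38039), PTGER2 (EMBV3_36599) and PTGER4 (EMBV3_35589). None of these 6 exceeded the limit on more than 2 arrays in either RNA.

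**Figure D1:**
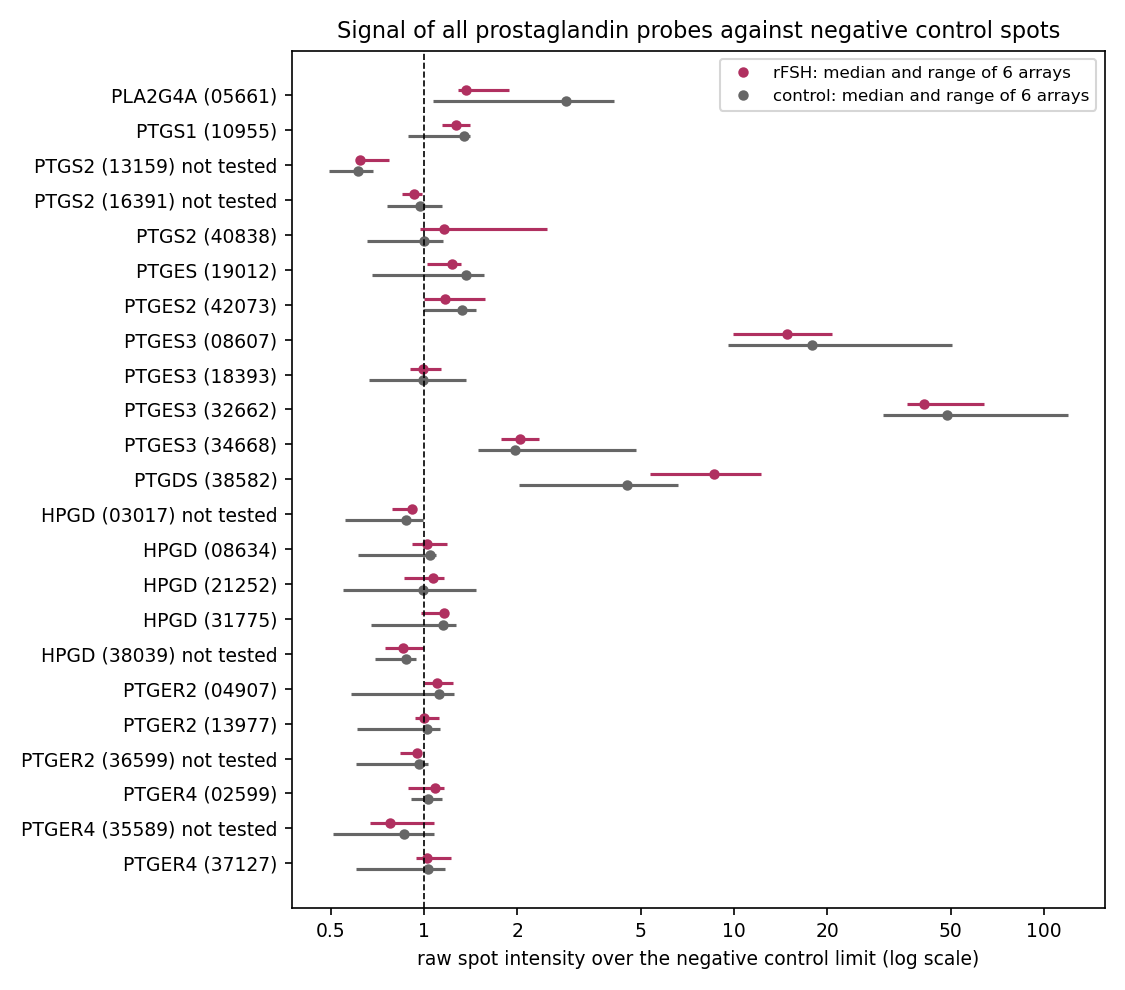
Raw spot intensity of the 23 prostaglandin probes divided by the negative control limit of the same array and colour (log scale), with the median as a point and the range of 6 arrays as a line, rFSH above control in each row; the dashed line at 1 is the limit. PTGES3 (3 of its probes), PTGDS and PLA2G4A lie to the right of the line on every array in both RNAs, and the other probes straddle it or lie below it.

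With rFSH, 1 of the 10 genes rose (PTGDS), 1 fell (PLA2G4A) and 8 did not pass limma's test at an adjusted p under 0.05, with p-values adjusted over all 34821 tested probes. The test asks whether the mean log2 ratio of rFSH over control in the 3 replicates differs from 0. Across all named genes 8.72% were called in either direction, 3.87% higher and 4.85% lower, and 2 calls among 10 genes are a count too small to be read as different from that share. The median log2 ratio of the 10 genes was 0.0017 and their median absolute ratio 0.093, against 0.0071 and 0.187 over all 13141 tested named genes. Ratios were positive for 5 genes and negative for 5. Counted by probe, 2 of 17 were called, against 6.34% of all tested probes (2.97% higher and 3.37% lower). Of the 17 tested probes, 11 had a ratio between -0.1 and 0.1, beside a median absolute ratio of 0.145 over all tested probes. Only 5 of the 17 exceeded the negative control limit in both RNAs on every array. Small ratios at such signal do not show that these genes were unchanged.

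**Figure D2:**
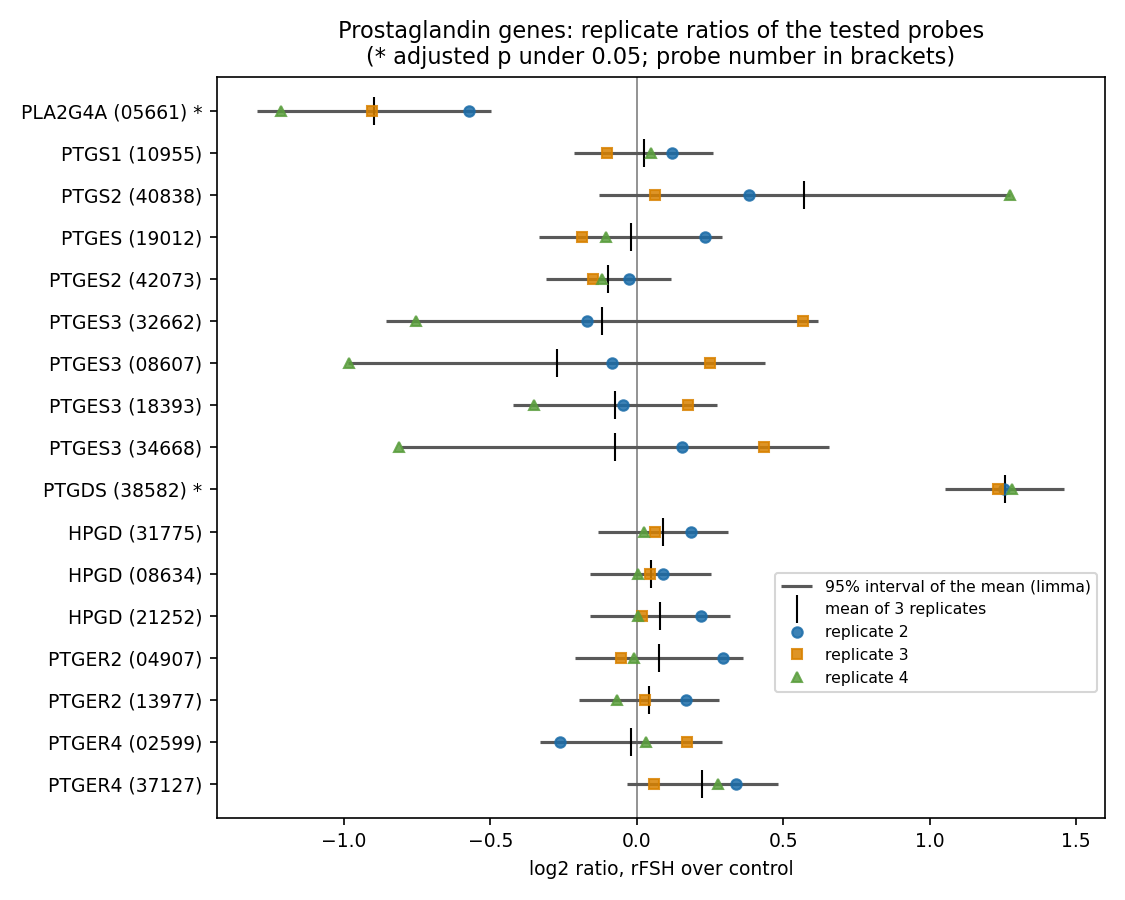
Log2 ratio, rFSH over control, of the 17 tested prostaglandin probes: points are replicates 2, 3 and 4 (each the mean of its dye-swapped arrays), ticks the mean and lines limma's 95% interval. PTGDS lies between 1.23 and 1.28 in all replicates and PLA2G4A between -1.21 and -0.57, while the intervals of the other probes include 0.

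PTGDS makes prostaglandin D as the lipocalin-type synthase and also binds lipophilic ligands. Its normalized log2 intensity was 10.23, 11.15 and 10.54 in rFSH-treated cells of replicates 2, 3 and 4, against 8.97, 9.92 and 9.26 in control cells. The groups did not overlap, and within each replicate the treated cells were higher by nearly the same step. The log2 ratios were 1.25, 1.23 and 1.28, with a mean of 1.26 ± 0.02 (SD, n = 3), a 2.39-fold higher level with rFSH (limma, adjusted p = 0.0164; 95% interval 1.05 to 1.46). The ratio was positive on 6 of 6 arrays, from 0.72 to 1.84. Both of those extremes came from replicate 4, whose arrays differed by 1.11, so single arrays varied more (SD of 6 arrays 0.36) than the replicate means did. A replicate SD as small as that of PTGDS or smaller was found for 2.05% of tested probes, and 214 named genes had a higher ratio. In bulk RNA of this kind, a change in the share of cells that express a gene and a change in RNA per cell cannot be told apart.

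The PTGDS call was lost when replicate 2 or replicate 3 was left out (adjusted p = 0.136 and 0.0786), where limma called no probe at all, and remained without replicate 4 (adjusted p = 0.0294); the ratio itself stayed between 1.24 and 1.27. It was also lost with unpaired replicate values (adjusted p = 0.111) and with an intensity trend in the variance model (adjusted p = 0.0615).

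PLA2G4A encodes cytosolic phospholipase A2 alpha, which frees arachidonic acid. Its normalized log2 intensity was 7.68, 7.70 and 7.73 in rFSH-treated cells of replicates 2, 3 and 4, against 8.26, 8.60 and 8.94 in control cells. The groups did not overlap, and the spread lay almost wholly in the control values (SD 0.34, against 0.022 with rFSH, n = 3 each). The log2 ratios were -0.57, -0.90 and -1.21, with a mean of -0.90 ± 0.32 (SD, n = 3), a level 1.86-fold lower with rFSH (limma, adjusted p = 0.0488; 95% interval -1.30 to -0.50). The ratio was negative on 6 of 6 arrays, from -1.45 to -0.25. Raw signal with rFSH was between 1.29 and 1.88 times the negative control limit, against 1.07 to 4.10 times in control.

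This call lay close to the threshold: 421 of the called probes had an adjusted p of 0.045 to 0.05, and that of PLA2G4A was among them. It was lost without background correction (adjusted p = 0.0887) and when any 1 replicate was left out (0.0783 to 0.14). With that array of replicate 2 (rFSH in Cy3) left out, the log2 ratio was -1.01 (adjusted p = 0.0204).

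**Figure D3:**
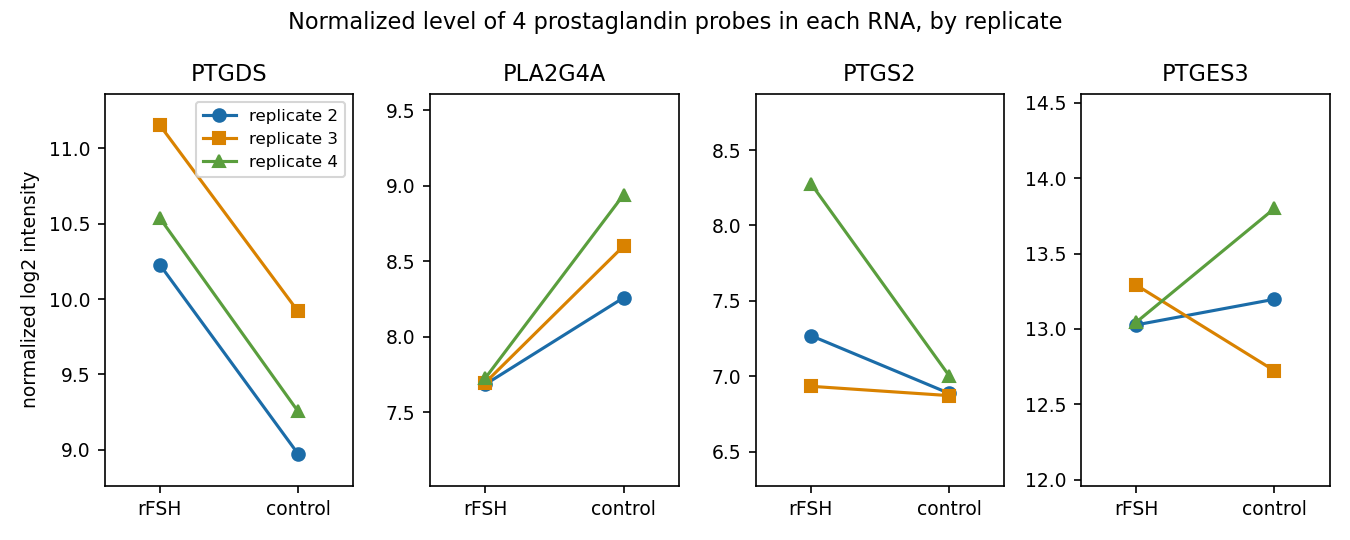
Normalized log2 intensity of PTGDS, PLA2G4A, PTGS2 (EMBV3_40838) and PTGES3 (EMBV3_32662) in rFSH-treated and control RNA, each line joining the values of 1 replicate; the vertical axes have their own ranges and do not start at 0. The lines of PTGDS run in parallel, those of PLA2G4A spread on the control side, that of replicate 4 stands apart for PTGS2, and those of PTGES3 cross.

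Neither cyclooxygenase passed the test. PTGS2 had a normalized log2 intensity of 7.27, 6.93 and 8.28 in rFSH-treated cells of replicates 2, 3 and 4, against 6.89, 6.87 and 7.005 in control cells. Replicate 4 with rFSH was the highest value, and the groups overlapped. The log2 ratios were 0.38, 0.06 and 1.27, with a mean of 0.57 and limma's 95% interval running from -0.13 to 1.27. The ratio was positive on 6 of 6 arrays. PTGDS, PLA2G4A and PTGS2 gave the 3 of 17 tested prostaglandin probes with 1 sign on all 6 arrays, against 21.7% of all tested probes. In replicate 4 the ratio was 1.11 on the array with rFSH in Cy5 and 1.43 on the array with rFSH in Cy3, so both orientations gave the high value. The interval reaches above a doubling, and at this signal and number of replicates neither a rise of that size nor its absence could be shown.

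The other PTGS2 probes gave no measure of this. EMBV3_13159 exceeded the limit on 0 of 6 arrays in either RNA. EMBV3_16391 did so on 0 arrays with rFSH and 1 in control, and its replicate log2 ratios were -0.69, 0.18 and 0.24. In the RefSeq annotation of the bovine assembly ARS-UCD2.0, PTGS2 and PLA2G4A are neighbouring genes, and here their fitted ratios had opposite signs, that of PTGS2 not being called.

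PTGS1 had a mean ratio near 0 at low signal. Its normalized log2 intensity was 7.44, 7.44 and 7.44 in rFSH-treated cells, against 7.32, 7.54 and 7.39 in control cells. The mean log2 ratio was 0.02 ± 0.11 (SD, n = 3; limma, adjusted p = 0.908), with a 95% interval of -0.21 to 0.26. Its raw signal was at most 1.41 times the limit in either RNA, and as low as 0.89 times in control. The log2 ratio was 0.244 with median pixels and -0.0747 on arrays with rFSH in Cy3 alone. At this signal the interval does not show that PTGS1 was unchanged.

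The prostaglandin E synthases were not called on any of their 6 tested probes. For PTGES, the inducible microsomal synthase, normalized log2 intensity was 7.28, 7.49 and 7.34 with rFSH, against 7.04, 7.68 and 7.45 in control, and the mean log2 ratio was -0.02 ± 0.22 (SD, n = 3; limma, adjusted p = 0.938). One array set its replicate 2 value of 0.23: the array with rFSH in Cy3 gave 0.62 and the others -0.29 to -0.06. Without that array the mean was -0.15 (adjusted p = 0.438). For PTGES2, a membrane-associated synthase, normalized log2 intensity was 7.54, 7.36 and 7.16 with rFSH, against 7.56, 7.51 and 7.28 in control. Its mean log2 ratio was -0.10 ± 0.06 (SD, n = 3; limma, adjusted p = 0.535), negative in 3 of 3 replicates, and -0.16 without the replicate 2 array with rFSH in Cy3 (adjusted p = 0.399).

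PTGES3, the cytosolic synthase also known as p23, a co-chaperone of HSP90, had the widest replicate spread of the 17 tested probes. The probe EMBV3_32662 had a normalized log2 intensity of 13.03, 13.29 and 13.05 in rFSH-treated cells of replicates 2, 3 and 4, against 13.20, 12.72 and 13.80 in control cells. Its log2 ratios were -0.17, 0.57 and -0.75, and the mean of -0.12 ± 0.66 (SD, n = 3) was not called (limma, adjusted p = 0.838). Its replicate SD exceeded that of 96.0% of tested probes, although its raw signal was at least 30.3 times the limit in either RNA. The treated values lay close together and the control values apart (SD 0.15 with rFSH and 0.54 in control).

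All 4 PTGES3 probes shared that order. EMBV3_08607 had log2 ratios of -0.09, 0.25 and -0.98, EMBV3_34668 had 0.16, 0.44 and -0.81, and EMBV3_18393, which exceeded the limit on 3 arrays in each RNA, had -0.05, 0.17 and -0.35. Each was positive in replicate 3 and negative in replicate 4. The probes are read from the same RNA, so they are repeat readings of its transcripts and do not add replicates. HSP90AA1, the partner chaperone, had a log2 ratio of -0.01 ± 0.03 (SD, n = 3). Its raw signal was 150 to 300 times the limit, and 2 of its spot readings reached the level counted as saturated (65000). How far saturation held this ratio near 0 was not tested.

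HPGD, the dehydrogenase that inactivates prostaglandin E, was within 0.1 of 0 on each of its 3 tested probes. EMBV3_31775 had a normalized log2 intensity of 7.08, 7.32 and 7.18 with rFSH, against 6.89, 7.26 and 7.16 in control. Its mean log2 ratio was 0.09 ± 0.08 (SD, n = 3; limma, adjusted p = 0.582; 95% interval -0.13 to 0.31). The other tested probes had means of 0.05 ± 0.04 and 0.08 ± 0.12. Raw signal was at most 1.20 times the limit with rFSH and 1.47 times in control over these 3 probes.

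The receptors PTGER2 and PTGER4 were not called either. PTGER2 had a normalized log2 intensity of 7.11, 7.02 and 7.18 with rFSH, against 6.82, 7.08 and 7.19 in control (EMBV3_04907), and a mean log2 ratio of 0.08 ± 0.19 (SD, n = 3; limma, adjusted p = 0.723). Its other tested probe had 0.04 ± 0.12. Without the replicate 2 array with rFSH in Cy3 both means were slightly negative, at -0.05 and -0.02. For PTGER4, EMBV3_02599 had 6.87, 7.19 and 7.02 with rFSH, against 7.13, 7.02 and 6.99 in control, and a mean log2 ratio of -0.02 ± 0.22 (SD, n = 3; limma, adjusted p = 0.943).

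The probe EMBV3_37127 of PTGER4 had 7.02, 6.96 and 7.01 with rFSH, against 6.68, 6.90 and 6.73 in control, levels that did not overlap. That held for 3 of the 17 tested prostaglandin probes and for 24.2% of all tested probes. Its mean log2 ratio of 0.22 ± 0.15 (SD, n = 3) was not called (limma, adjusted p = 0.249). The ratio was positive on the 3 arrays with rFSH in Cy3 and negative on the 3 with rFSH in Cy5, and it was 0.06 without the replicate 2 array with rFSH in Cy3.

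A dye difference, the part of a log2 ratio that follows the dye and not the RNA, was therefore tested for each probe. It was called for 3 of the 17 prostaglandin probes (limma, adjusted p under 0.05), against 12.3% of all tested probes. The Cy5 over Cy3 difference was 0.32 for EMBV3_18393 of PTGES3 (adjusted p = 0.0316), 0.28 for EMBV3_34668 of PTGES3 (adjusted p = 0.0454) and -0.34 for EMBV3_37127 of PTGER4 (adjusted p = 0.04999). PTGES2 had -0.30 without a call (adjusted p = 0.0529), and its ratio was negative on the 3 arrays with rFSH in Cy5 and positive on the 3 with rFSH in Cy3. PTGDS had 0.25 (adjusted p = 0.132) and PLA2G4A -0.21 (adjusted p = 0.118), in each case smaller than the ratio itself. A dye difference cancels in the mean of a dye-swapped pair. It does not cancel in replicate 2 when its array with rFSH in Cy3 is left out. Values given without that array, such as those of PTGES2 and PTGER4, therefore include part of it.

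**Figure D4:**
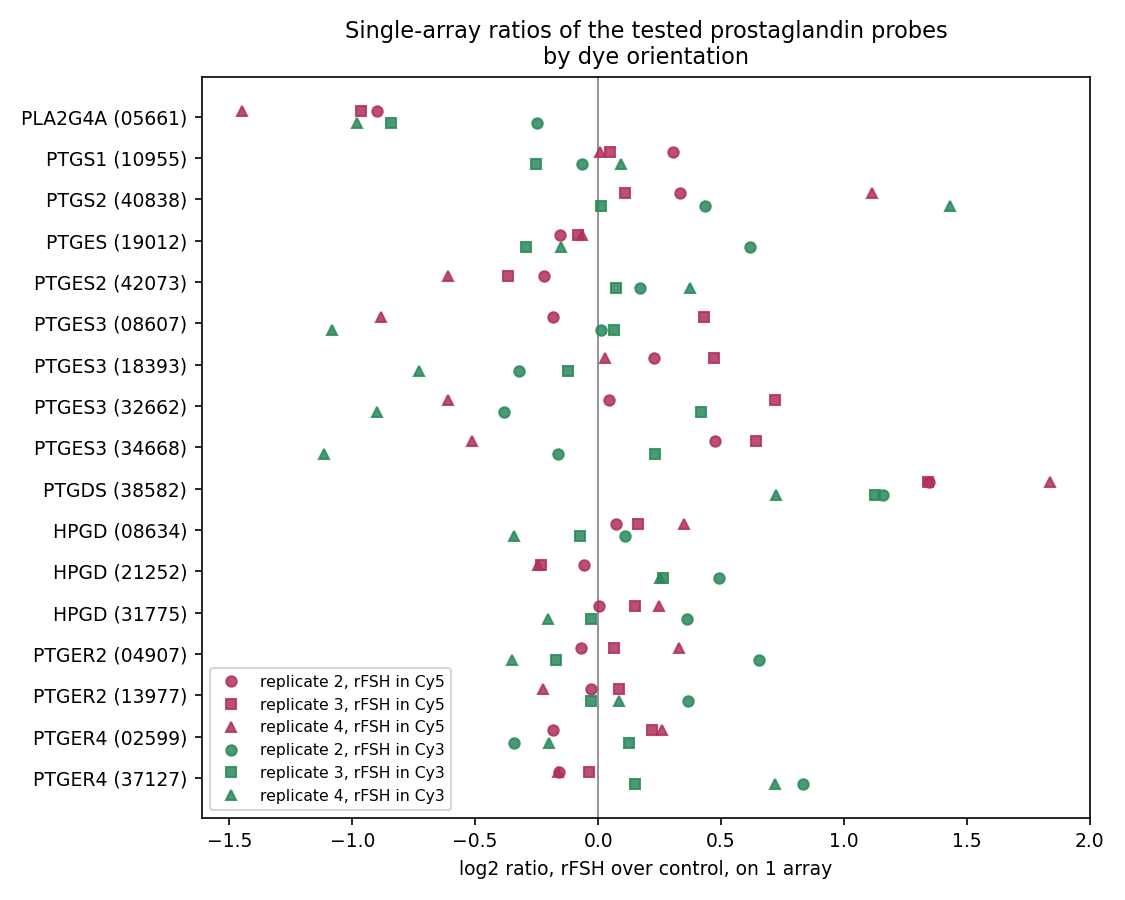
Log2 ratio, rFSH over control, on each of the 6 arrays for the 17 tested prostaglandin probes, with symbols for replicates 2, 3 and 4 and colours for the dye orientation. PTGDS is positive and PLA2G4A negative on all 6 arrays, and PTGES2 and the probe EMBV3_37127 of PTGER4 split by orientation.

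The wider pathway was read from a list of 63 further genes of arachidonic acid release, prostanoid and leukotriene synthesis, breakdown, transport and reception. Of these, 51 had a probe and 46 a tested probe. With rFSH, 0 of the 46 rose and 3 fell, a share called of 6.52% beside 8.72% of all named genes. At an unadjusted p under 0.05 there were 9 of 46, against 30.85% of all named genes. The median log2 ratio of the list was 0.02, and the ratios ran from -2.17 (ANXA1) to 1.04 (ACSL4, not called).

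ANXA1, annexin A1, a phospholipid-binding protein first described as an inhibitor of phospholipase A2, fell with rFSH. Its normalized log2 intensity was 10.57, 9.73 and 9.76 in rFSH-treated cells of replicates 2, 3 and 4, against 12.13, 12.25 and 12.20 in control cells. The groups were far apart, with log2 ratios of -1.56, -2.52 and -2.44 and a mean of -2.17 ± 0.53 (SD, n = 3; limma, adjusted p = 0.0283), a 4.50-fold lower level with rFSH. The ratio was negative on all 6 arrays, between -2.57 and -1.56. Its call was lost without replicate 2 (adjusted p = 0.136) or replicate 3 (adjusted p = 0.0804) and remained without replicate 4 (adjusted p = 0.0394).

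PTGR2 and PLA2G7 were the other called genes. PTGR2, prostaglandin reductase 2, which reduces 15-keto-prostaglandins downstream of HPGD, had log2 ratios of -0.75, -0.76 and -1.24 and a mean of -0.92 ± 0.28 (SD, n = 3; limma, adjusted p = 0.0424). PLA2G7, which hydrolyses platelet-activating factor, had -0.64, -0.71 and -0.66 and a mean of -0.67 ± 0.04 (SD, n = 3; limma, adjusted p = 0.0311) on its probe EMBV3_05669. Its other tested probe, at 7.11 to 7.28 with rFSH and 7.24 to 7.37 in control on the log2 scale, had a mean of -0.10 ± 0.05 and was not called (adjusted p = 0.520). The PTGR2 call was lost without the replicate 2 array with rFSH in Cy3 (adjusted p = 0.0562). Leaving out any 1 replicate ended the calls of PTGR2 (adjusted p 0.0576 to 0.159) and PLA2G7 (0.0705 to 0.14). Of 15 alternatives that kept all replicates, PTGR2 was called under 9 and PLA2G7 under 11. These counts include a scaling between arrays (Aquantile) that leaves ratios unchanged and so repeats the reported fit. The call of PLA2G7 was lost with median pixels (log2 ratio -0.538, limma, adjusted p = 0.0981).

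A further pair of genes had probes on either side of the threshold. PTGR1, prostaglandin reductase 1, had a mean log2 ratio of -0.998 ± 0.38 on EMBV3_34931 (limma, adjusted p = 0.0502) and -0.99 ± 0.37 on EMBV3_19274 (adjusted p = 0.0499; SD, n = 3 each). Both probes were lower with rFSH in 3 of 3 replicates, and each of their 6 single-array ratios was negative. Without the replicate 2 array with rFSH in Cy3, EMBV3_19274 was not called (adjusted p = 0.0566). AKR1B1, an aldose reductase that also makes prostaglandin F, had -0.51 ± 0.12 on EMBV3_25972 (adjusted p = 0.0537) and -0.76 ± 0.23 on EMBV3_01265 (adjusted p = 0.0452; SD, n = 3 each). EMBV3_25972 gained a call without that replicate 2 array (log2 ratio -0.56, adjusted p = 0.047), with the authors' deposited ratios (-0.498, adjusted p = 0.0461) and with median centring (-0.62, adjusted p = 0.0343), while EMBV3_01265 lost its call with the authors' deposited ratios (-0.646, adjusted p = 0.067). Of the same 15 alternatives, EMBV3_25972 was called under 4 and EMBV3_01265 under 11. With any 1 replicate left out, neither was called. With the probes of a gene averaged before the fit, PTGR1 was at -0.99 (adjusted p = 0.0476) and AKR1B1 at -0.63 (adjusted p = 0.0344), and PLA2G7 at -0.38 was not called (adjusted p = 0.0602).

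The remaining tested prostanoid synthases and receptors were not called, with mean log2 ratios between -0.16 and 0.21. HPGDS, the haematopoietic prostaglandin D synthase, had a mean log2 ratio of 0.07 ± 0.05, so of the pair of prostaglandin D synthases PTGDS alone was called. The difference between them was not tested. PTGIS, the prostacyclin synthase, had 0.01 ± 0.10, and TBXAS1, the thromboxane synthase, 0.04 ± 0.34 (SD, n = 3 each). In either RNA, raw signal was at most 1.18 times the limit for HPGDS, 1.56 for PTGIS, 1.29 for TBXAS1 and 1.20 for the receptor TBXA2R. It was at most 1.25 times for PTGFR and 1.59 times for PTGER3. At such signal, small ratios do not show that these genes were unchanged. Among receptors, PTGER1 had -0.06, PTGER3 0.13, PTGFR -0.16, PTGIR 0.21 and TBXA2R 0.02 as mean log2 ratios. That of PTGIR was positive on 6 of 6 arrays, from 0.07 to 0.38, without a call (limma, adjusted p = 0.235). Of all tested probes, 21.7% had the same sign on all 6 arrays. In replicate 4, the PTGER1 value of -0.46 came from the array with rFSH in Cy5 alone, as 1 spot was ignored. PTGER1 had a called dye difference of -0.37 (limma, adjusted p = 0.0239), which does not cancel on 1 array. PTGDR, a prostaglandin D receptor, exceeded the limit on 2 arrays with rFSH and 1 in control and was not tested. The transporter SLCO2A1, which carries prostaglandins into cells, had a mean log2 ratio of 0.37 ± 0.19 (SD, n = 3; limma, adjusted p = 0.131) and 0.18 ± 0.12 on its other probe (0.224 for the first without the replicate 2 array with rFSH in Cy3, adjusted p = 0.343), and SLCO3A1 had -0.10 ± 0.19.

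**Figure D5:**
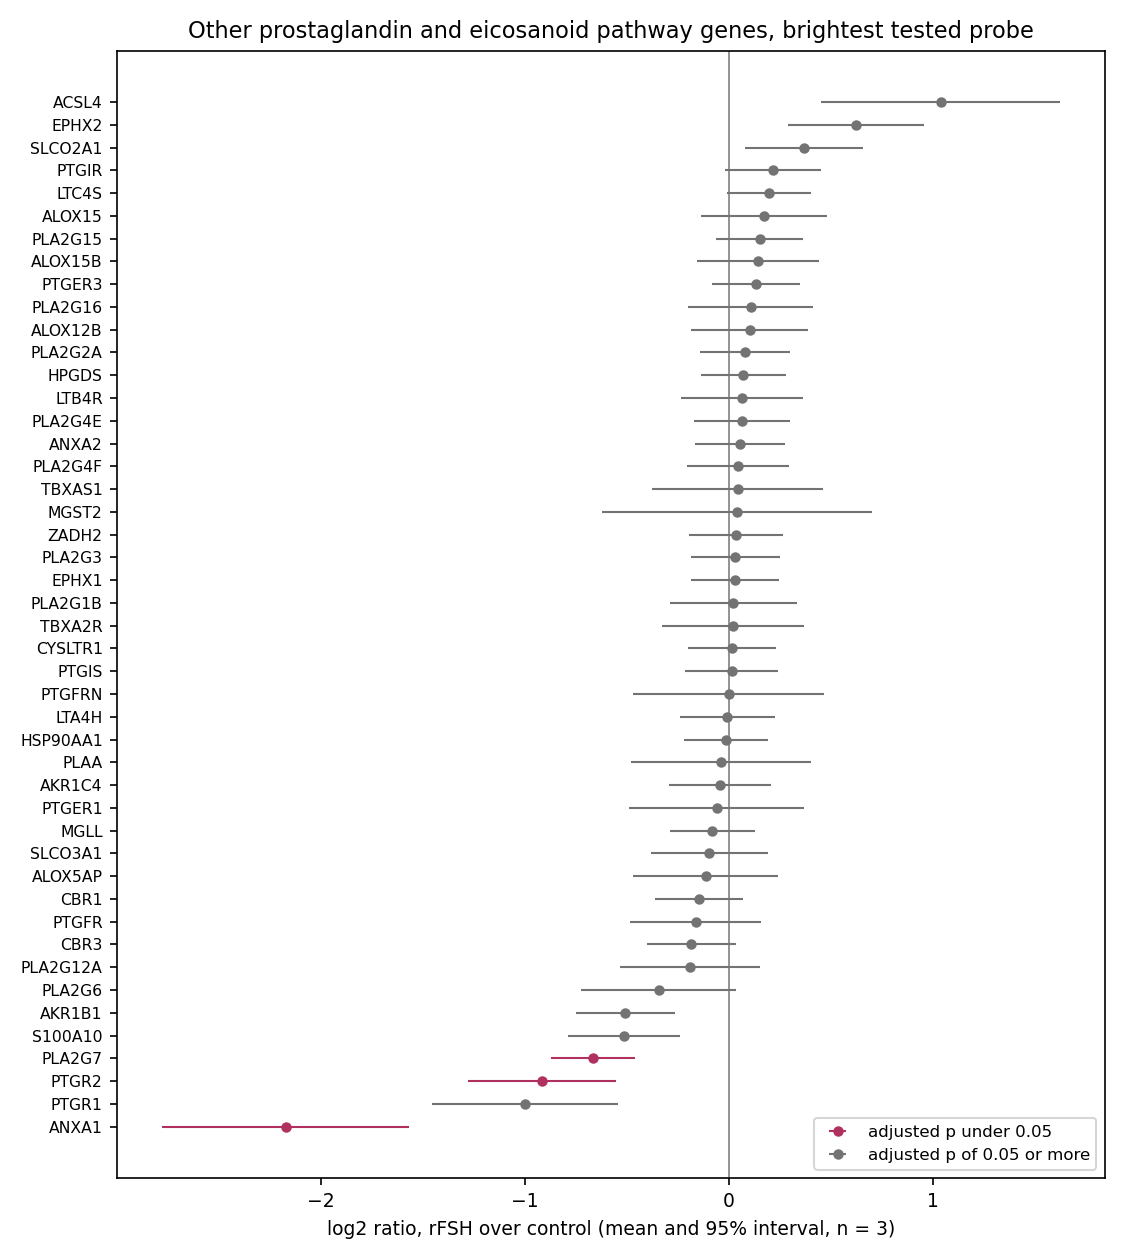
Mean log2 ratio, rFSH over control, with limma's 95% interval (n = 3) for the 46 tested genes of the wider pathway list, each by its probe of highest mean intensity, ordered by ratio. ANXA1 at -2.17, PTGR2 at -0.92 and PLA2G7 at -0.67 are called; ACSL4 has the highest ratio and is not called.

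Marker genes were set beside the labelled cell type. All 12 cumulus and granulosa markers had a probe, and all but AMHR2 exceeded the limit on at least 1 array. Most probes do so: 34821 of the 43794 bovine probes exceeded it on at least 3 arrays in either RNA. Counts of markers above the limit therefore do not identify the cell type. Their summed normalized intensity was 98665 to 113964 with rFSH, against 87469 to 92825 in control. The median log2 ratio of the 11 tested genes was -0.02, with 5 positive and 6 negative, so the sums do not describe the list gene by gene. FSHR, the FSH receptor, was lower with rFSH (log2 ratio -0.83 ± 0.28, SD, n = 3, limma, adjusted p = 0.0479). It was the 1 called gene of these 11, against 8.72% of all named genes. Without a call, AMH (1.44) and INHBA (0.80) had positive log2 ratios and FST (-1.17) and HSD3B1 (-1.10) negative ones. Markers of other cells passed this limit too, which by itself does not show that those cells were present. Of 14 oocyte genes 13 had a probe, and all 13 exceeded the limit on some array, DAZL on 3 arrays in each RNA. Their summed level was 1937 to 6412 with rFSH, against 1717 to 6455 in control. None of them was called, but they varied between replicates, ZP2 having log2 ratios of 1.46, -3.14 and 0.22 in replicates 2, 3 and 4. Theca and stroma genes (9 of 9 with a probe, all above the limit on some array) had summed levels of 15725 to 26856 with rFSH, against 24030 to 31628 in control. ACTA2 was lower with rFSH (log2 ratio -1.29). MYH11 was also called lower, but it passed the filter through the control channel alone (0 arrays with rFSH, 4 in control), so its direction is not read as a result. These 2 calls among 9 genes, beside 4.85% of all named genes called lower, are too few to be read as different from that share. The median log2 ratio of this list was -0.03, and PDGFRA had 0.56, 0.35 and 0.94 in replicates 2, 3 and 4 without a call (limma, adjusted p = 0.082). Of 10 blood and endothelium genes PECAM1 did not exceed the limit and none was called, with summed levels of 2134 to 4856 with rFSH, against 1617 to 3350 in control. Among them, CD68, a macrophage marker, had log2 ratios of 1.27, 0.33 and 2.30 in replicates 2, 3 and 4 (mean 1.30 ± 0.98; limma, adjusted p = 0.141), and VWF, an endothelial one, 0.32, 0.82 and 0.63 (mean 0.59 ± 0.25; adjusted p = 0.0741; SD, n = 3 each). The part of these cells in the ratios of PTGDS, PLA2G4A, PTGS2, PTGES3 and ANXA1 was not tested.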

How the data were processed

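Gene expression was measured on 6 two-colour Agilent arrays. Per the labels' protocols, RNA went through linear T7 amplification and direct chemical labelling with Cy3 or Cy5. Per the file headers, the deposited scanner files give unnormalized intensity of each spot and of its surroundings, read at 532 nm for Cy3 and at 635 nm for Cy5. The authors also deposited normalized log2 ratios, which held Cy5 over Cy3 when set against the scanner values (r 0.976 to 0.992 per array, column medians -0.0202 to 0.0012); the sources used here do not give their normalization, and they served as an alternative. A second deposited table with 6 such columns, which also lists control spots, was not used.

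In limma 3.58.1 (R 4.3.3), normexp with an offset of 50 was run on mean pixels against the median of the local background, followed by loess with a span of 0.3 within arrays. Control spots did not enter the loess curve or the tests. Per array, 18 to 64 spots marked as ignored by the image software were dropped. None of them belonged to a gene of the prostaglandin set named at the start of the Results. In the wider list, the dropped spots included 1 of the receptor PTGER1, whose value is given above with that limit. A probe was tested where its raw intensity lay over the limit (mean + 2 SD of the 153 negative controls) on 3 or more arrays in either RNA. Ratios were turned to rFSH over control by the labelled dyes, the arrays of a replicate averaged, and the 3 values tested against 0 with lmFit and eBayes, with Benjamini-Hochberg adjustment over 34821 probes at 0.05. Treated and control RNA of a replicate number share their arrays, so the pairing is within the ratio. Of these steps, the limma test and the adjustment were run on simulated replicate ratios. Background correction, loess, the filter and the turning by dye were not part of that simulation. Symbols came from the platform annotation, which names 1 gene for 21790 probes and none for 22004. Summed marker levels are sums of linear normalized intensity over each list's brightest probes.

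Text named every prostaglandin gene with all its probes and, of the wider list, called genes, prostanoid receptors, synthases and transporters; PTGR1, AKR1B1, ACSL4, HSP90AA1, EPHX2, S100A10, PLA2G12A, PTGFRN and the markers given with values were named after their values were seen. Members and lists were chosen with earlier results of these data known. Depth of an array is not a count, so precision rests on 3 replicates and on signal over the negative controls. Alternatives covered background, normalization, filter, variance model, pairing, dye orientation and replicates.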

Additional observations from a re-analysis of the deposited data

Results flagged for a closer look

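On each of 32 probes of the named prostaglandin and wider pathway genes, the 6 single-array log2 ratios were searched with Dixon's test for 1 array far from the others. It picked out 2 probes where chance alone gives about 1.6, both on the replicate 2 array with rFSH in Cy3. PTGES had 0.616 on that array, against -0.29 to -0.06 on the others. SLCO3A1 had -0.52 there, against -0.11 to 0.13 on the others. The same array had the lowest share of probes above the negative controls in its control channel. Neither gene was called with or without it, and its part in these values was not tested.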

How the results depend on the processing

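Across the alternatives that kept all replicates, no called prostaglandin gene changed direction. The alternative that adds a scaling between arrays (Aquantile) leaves every ratio as it was. It repeats the reported fit, so a call kept under it adds no support, and each tally below includes it. PTGDS kept its call under 13 of 15 (log2 ratio 1.00 to 1.51), PLA2G4A under 9 of 15 (-1.10 to -0.69), ANXA1 under 14 of 15 (-2.31 to -2.11), PLA2G7 under 11 of 15 (-0.805 to -0.527) and PTGR2 under 9 of 15 (-1.13 to -0.70), while PTGS2 was called under none of 14 (0.45 to 0.82, adjusted p 0.108 to 0.464). The cause of each move below was not tested unless stated. By design, ratios from arrays of 1 dye orientation alone include the dye difference, which cancels only in a dye-swapped pair. In counts of calls, with 1 higher and 1 lower prostaglandin gene, 0 higher and 3 lower wider genes, and 1035 higher and 1173 lower probes as reported: no background correction gave 0 lower prostaglandin genes, 570 higher and 482 lower probes, and 0 prostaglandin dye differences; plain subtraction gave 0 lower prostaglandin genes and 714 lower probes; offset 0 gave 2 higher wider genes and 1863 lower probes; median centring gave 5 lower wider genes and 1848 lower probes, with 29.6% of calls higher in place of 46.9%. Testing probes above the limit on every array, a smaller set, gave 2 higher wider genes and 2010 lower probes, and no filter gave 0 lower prostaglandin genes. With 6 arrays, a dye term and a random replicate block there were 2 higher and 6 lower wider genes and 2674 higher and 3381 lower probes, with PTGDS (adjusted p = 0.00145) and PLA2G4A (0.0046) still called; unpaired values, with no replicate block, gave 0 and 0 prostaglandin genes, 1 lower wider gene, and 468 higher and 558 lower probes. Arrays with rFSH in Cy5 alone gave 1 higher wider gene, 1565 higher and 1833 lower probes, and those with rFSH in Cy3 alone 0 lower prostaglandin genes and 1581 higher probes. An intensity trend in eBayes gave 0 calls of any kind, with 9179 probes at an unadjusted p under 0.05. Median pixels gave 1 higher wider gene, as did dropping the array of replicate 2 that had rFSH in Cy3. Leaving out each replicate, with fewer samples, gave 0 to 1 higher and 0 lower prostaglandin genes, 0 to 1 lower wider genes, 0 to 510 higher and 0 to 675 lower probes; without replicate 2 or 3 limma called 0 probes, with 6874 and 7399 at an unadjusted p under 0.05.

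Ratios near 0 that were not called changed sign as follows. Those from 1 dye orientation alone include the dye difference of the probe. Those without the replicate 2 array with rFSH in Cy3 include it through replicate 2. Arrays with rFSH in Cy3 alone gave log2 ratios of -0.0747 (PTGS1), -0.00825 (PTGIS), 0.205 (PTGES2), 0.0575 (PTGES), -0.102 (HPGD, EMBV3_08634) and 0.462 (PTGER1). Arrays with rFSH in Cy5 alone gave 0.0272 (SLCO3A1), 0.0989 and -0.12 (PTGER4, EMBV3_02599 and EMBV3_37127), -0.0322 (TBXA2R), 0.242, 0.202 and 0.0508 (PTGES3, EMBV3_18393, EMBV3_34668 and EMBV3_32662), -0.0564 (PTGER2, EMBV3_13977), -0.171 (PTGER3), -0.177 (HPGD, EMBV3_21252) and -0.00825 (TBXAS1). Without the replicate 2 array with rFSH in Cy3, values were 0.0072 (PTGER4, EMBV3_02599), -0.0171 (TBXA2R), 0.0167 and 0.0326 (PTGES3, EMBV3_18393 and EMBV3_34668), -0.0241 and -0.045 (PTGER2, EMBV3_13977 and EMBV3_04907), -0.0341 (PTGER3) and -0.0124 (HPGD, EMBV3_21252). Median pixels gave -0.0652 (TBXA2R), 0.0365 (PTGES3, EMBV3_18393), -0.00725 (PTGER2, EMBV3_13977), -0.0662 and -0.00152 (HPGD, EMBV3_31775 and EMBV3_21252). The authors' deposited ratios gave 0.00803 (PTGER4, EMBV3_02599), 0.0103 (PTGES3, EMBV3_34668) and 0.11 (PTGER1), median centring 0.0173 and no background correction 0.00316 (PTGER4, EMBV3_02599), and the random replicate block 0.0759 (PTGER1). Leaving out 1 replicate, ratios ran from -0.0262 to 0.085 (PTGS1), -0.0393 to 0.0597 (PTGIS), -0.169 to 0.0107 (SLCO3A1), -0.115 to 0.102 (PTGER4, EMBV3_02599), -0.0633 to 0.172 (TBXA2R), -0.147 to 0.0621 (PTGES), -0.0847 to 0.236 (TBXAS1), -0.194 to 0.14 (PTGER1), -0.0211 to 0.098 and -0.0325 to 0.141 (PTGER2, EMBV3_13977 and EMBV3_04907), and -0.199 to 0.0628, -0.329 to 0.296, -0.462 to 0.199 and -0.534 to 0.0811 (PTGES3, EMBV3_18393, EMBV3_34668, EMBV3_32662 and EMBV3_08607). Signal limits these ratios: 12 of the 17 tested prostaglandin probes were not above the negative controls in both RNAs on every array.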

Other observations

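In the wider list, 5 more genes had a probe with a log2 ratio beyond 0.5 in size and no call, and they were singled out after their values were seen. ACSL4, which couples arachidonic acid to coenzyme A, had a normalized log2 intensity of 13.19, 13.25 and 13.28 in rFSH-treated cells of replicates 2, 3 and 4, against 12.52, 12.44 and 11.66 in control cells; its mean log2 ratio was 1.04 ± 0.51 (SD, n = 3; limma, adjusted p = 0.0715). EPHX2, the soluble epoxide hydrolase, had a mean log2 ratio of 0.62 ± 0.25 (adjusted p = 0.0647) on 1 probe and -0.05 ± 0.02 on the other, so its probes disagreed. S100A10, the partner of annexin A2, had -0.51 ± 0.17 (adjusted p = 0.0644), lower with rFSH in 3 of 3 replicates. Secreted phospholipase gene PLA2G12A had -0.92 ± 0.36 on EMBV3_29509 (adjusted p = 0.0524), with -0.19 and -0.05 on its other probes. PTGFRN, which encodes a protein that associates with the prostaglandin F receptor, had -0.74 ± 0.25 on EMBV3_43453 (adjusted p = 0.0502), with -0.0022 and 0.08 on its other probes. Both of these lower probes were negative on 6 of 6 arrays, and the probes of each gene disagreed. None of the 5 genes passed the test.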
